A study of Mus musculus with 4 samples.

Results

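The expression of 10 genes of the ADAMTS family was followed in mouse embryonic fibroblasts (MEFs) with and without the inositol hexakisphosphate kinase Ip6k1. They were the proteases Adamts1, Adamts2, Adamts4, Adamts5, Adamts7, Adamts9, Adamts10 and Adamts12 and the ADAMTS-like genes Adamtsl1 and Adamtsl4. Every array probe that is not a control and carries one of these gene names was taken, which gave 23 of 41174 probes and 10 of 27827 gene names. The cells were 4 MEF lines, 2 Ip6k1+/+ and 2 Ip6k1-/-, each grown from 1 embryo of embryonic day 14, and all embryos came from a single litter of heterozygous parents. All lines were immortalised with SV40 large T antigen, were growing exponentially at harvest, and have no further treatment named in their labels. RNA of each line was copied from its poly(A) tail, labelled with Cy3 and hybridised to 1 Agilent whole mouse genome array. Each line descends from 1 embryo, so the spread between lines holds differences between embryos and between immortalised cultures, and with 2 lines per genotype an exact permutation test cannot give a p-value below 0.333.

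ADAMTS proteins are secreted zinc metalloproteases that carry thrombospondin type 1 repeats, through which they bind the extracellular matrix. They cut matrix proteins outside the cell: ADAMTS2 removes the amino-terminal propeptide of fibrillar procollagens, ADAMTS1, ADAMTS4, ADAMTS5 and ADAMTS9 cleave aggrecan and versican, and ADAMTS7 and ADAMTS12 cleave cartilage oligomeric matrix protein. ADAMTS10 and ADAMTSL4 are known from the assembly of fibrillin microfibrils. ADAMTS-like proteins share the repeats but lack the protease domain, and fibroblasts are a known source of many members of the family.

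The array reads each gene through single-stranded probes of 60 bases, and 5 of the 23 are shown because the comparisons below turn on them: the Adamts2 probe that was measured in every line, an Adamts2 probe that was measured only in Ip6k1+/+ lines, an Adamts9 probe on which the Ip6k1-/- lines parted, and a probe each of Adamts1 and Adamts10, whose lines overlapped. The sequences are those of the array files, 5′ to 3′.
Adamts2 A_51_P227222: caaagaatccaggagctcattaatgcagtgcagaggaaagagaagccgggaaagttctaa
Adamts2 A_52_P184042: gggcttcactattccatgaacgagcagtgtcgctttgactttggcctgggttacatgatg
Adamts9 A_52_P49321: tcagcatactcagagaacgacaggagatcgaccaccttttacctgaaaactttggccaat
Adamts1 A_52_P213932: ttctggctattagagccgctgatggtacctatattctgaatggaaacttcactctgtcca
Adamts10 A_52_P671784: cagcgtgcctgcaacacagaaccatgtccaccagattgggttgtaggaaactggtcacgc

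In mm9, the build named in the array files, these 5 probes lie at chr11:50617472-50617531 on the plus strand, chr11:50590188-50590247 on the plus strand, chr6:92723051-92723110 on the minus strand, chr16:85796191-85796250 on the minus strand and chr17:33686520-33687435 on the plus strand. The Adamts10 probe covers 916 bases of the genome, more than its own length, so its sequence spans a splice junction. The files place the 5 probes at bases 3661, 1528, 5618, 2707 and 2759 of their RefSeq transcripts. Of the 23 probes, 17 were designed on a RefSeq transcript, and all 17 accessions carry the same symbol in the RefSeq table used here. The other 6 were designed on cDNA clones. The GC content of the 23 probes ran from 23.3% to 55.0%.

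Values are log2 of the background-corrected signal minus the 75th percentile of the array, so that 0 marks the 75th percentile of that array and a difference of 1 is a 2-fold difference. The arrays were alike in brightness, with a 75th percentile signal between 610 and 747 and between 52.0% and 55.5% of probes well above background, and all 4 lay on 1 slide. The targeted gene matched the labels: Ip6k1 probe A_51_P213766 was at 0.35 and 0.39 in Ip6k1+/+ MEFs and called well above background in neither Ip6k1-/- line, where it was at least 34.0-fold lower (limma adjusted p = 0.0355). A second probe, A_52_P413035, was called alike, at least 32.7-fold lower. The third, A_51_P103718, was still measured in both Ip6k1-/- lines, at -1.98 and -1.23 against 2.46 and 2.61, or 17.5-fold lower (limma adjusted p = 0.367). For a limit of this kind, the dimmer genotype was given, on each array, the faintest signal still called well above background, or the probe's own value if higher, and was then set against the mean of the other genotype. Such a limit holds for this background correction and for the mean, not for each line. All 8 fibroblast markers listed (Col1a1, Col1a2, Col3a1, Pdgfra, Pdgfrb, Thy1, Vim and Dcn) were well above background in every line.

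Of the 23 probes, 12 probes of 8 genes were well above background in every line, and 4 were so in none. A probe was tested when it was well above background in both lines of at least 1 genotype, which held for 17 probes and left at least 1 probe of each gene. Of these 17, 5 passed only through the Ip6k1+/+ lines and so were bound to be, or likely to be, lower in Ip6k1-/- MEFs. Low signal in a line can come from fewer cells that express a gene or from less RNA per cell, and these cannot be told apart in bulk RNA.

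**Figure D1:**
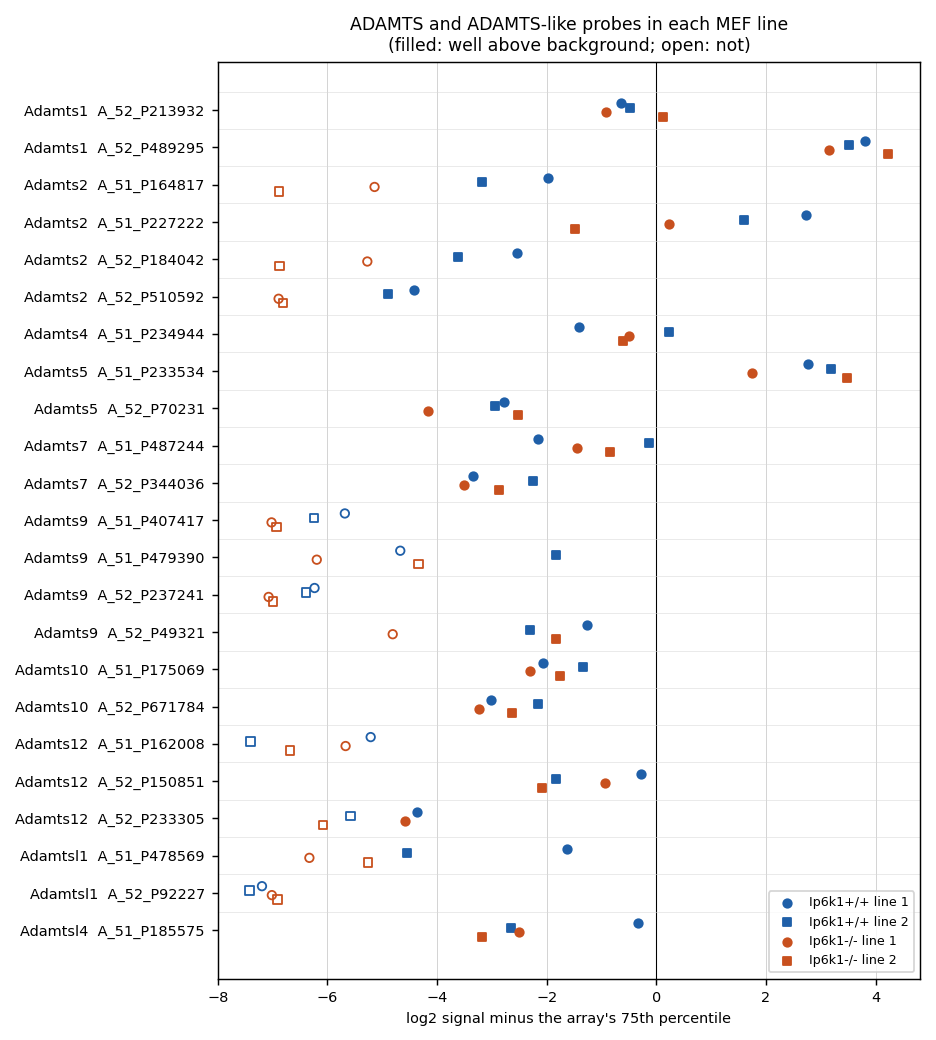
Each row is 1 of the 23 probes and each point 1 MEF line, on the log2 signal minus the 75th percentile of the array; filled points were well above background and open points were not. On the 4 Adamts2 probes both Ip6k1-/- lines sit to the left of both Ip6k1+/+ lines, while most other rows overlap.

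Adamts2, a procollagen N-proteinase, was lower in both Ip6k1-/- lines on all 4 of its probes. On probe A_51_P227222, the one measured in every line, Ip6k1+/+ MEFs were at 2.72 and 1.60 and Ip6k1-/- MEFs at 0.23 and -1.49. Neither Ip6k1-/- line reached the lower of the Ip6k1+/+ lines, and the gaps between lines of 1 genotype were 1.12 and 1.72. The means were 2.16 ± 0.79 (SD, n = 2) in Ip6k1+/+ and -0.63 ± 1.22 (SD, n = 2) in Ip6k1-/- MEFs. They differed by -2.79 (standard error 0.70, 95% interval -4.62 to -0.96), or 6.92-fold lower. The difference was -1.93 without Ip6k1-/- line 2, -2.23 without Ip6k1+/+ line 1, -3.35 without Ip6k1+/+ line 2 and -3.65 without Ip6k1-/- line 1. In limma, the unadjusted p was 0.0117 and the Benjamini-Hochberg adjusted p over all 21572 probes tested was 0.993, so the difference did not pass the test.

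The 3 further Adamts2 probes were well above background in the Ip6k1+/+ lines and not in the Ip6k1-/- lines. Probe A_52_P184042 was at -2.54 and -3.62 in Ip6k1+/+ MEFs, and at -5.27 and -6.88 in Ip6k1-/- MEFs, where it has only an upper limit. Probe A_51_P164817 was at -1.98 and -3.18 against -5.14 and -6.88. Probe A_52_P510592 was at -4.42 and -4.90 against -6.89 and -6.81. By the limit defined above, the signal in Ip6k1-/- MEFs lay below the Ip6k1+/+ mean by at least 3.11-fold, 4.40-fold and 1.04-fold, in this order. These limits hold for the main background correction only. On the first and second probes they are 1.64 and 2.14 in log2, larger than the normexp differences given next. The fitted differences of -2.99, -3.43 and -2.19 depended on how the dim signals were handled, and were -0.96, -1.23 and -0.31 under normexp background correction. Their limma unadjusted p-values were 0.00933, 0.00717 and 0.0025, and the last had the lowest adjusted p of any probe of the 10 genes, 0.973. The 4 probes are spread over 30705 bases of chromosome 11, from 50590188 to 50620892, and read the same RNA preparations, so they are repeat readings of 1 gene and not independent samples. In both genotypes line 1 was above line 2 on 3 of the 4 probes by between 1.08 and 1.74. On A_52_P510592 the Ip6k1-/- lines differed by -0.08, with neither well above background.

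Adamtsl1, a secreted matrix protein also called punctin, was measured by probe A_51_P478569 at chr4:86073485-86073544. The Ip6k1+/+ lines were at -1.62 and -4.55, and the Ip6k1-/- lines, not well above background, were at -6.33 and -5.25. Both Ip6k1-/- lines lay below the Ip6k1+/+ lines, but the Ip6k1+/+ lines differed from each other by 2.93, more than the difference between genotypes. By the limit defined above, the signal in Ip6k1-/- MEFs was at least 3.09-fold below the Ip6k1+/+ mean, which line 1 raised (limma adjusted p = 0.993). Ip6k1+/+ line 2, at -4.55, was close to the faintest signals called well above background in the Ip6k1-/- lines, -4.75 and -4.68. The fitted difference of -2.70 had a 95% interval from -5.49 to 0.08, and was -0.86 under normexp background correction, smaller than the limit. The other Adamtsl1 probe, A_52_P92227, was called well above background on no array.

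Adamtsl4, which binds fibrillin microfibrils, has 1 probe, A_51_P185575 at chr3:95480524-95480583, measured in every line. Ip6k1+/+ MEFs were at -0.33 and -2.65, Ip6k1-/- MEFs at -2.50 and -3.18. Ip6k1+/+ line 1 stood apart from the other 3 lines, and the genotypes overlapped. The mean difference was -1.35 (standard error 0.84, 95% interval -3.54 to 0.84, limma adjusted p = 0.993), smaller than the gap of 2.32 between the Ip6k1+/+ lines.

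The study compared the genotype means with a 2-fold cutoff. Here the cutoff asked for a difference of 1 or more between the means and, as a limit added here that the study does not state, for each Ip6k1-/- line to lie 0.9 or more from the Ip6k1+/+ mean. It was passed in the lower direction by 3 of the 10 genes, Adamts2, Adamtsl1 and Adamtsl4. Over all 14334 gene names tested, 2.44% passed it in that direction. Without the limit per line, Adamts9 passed as well, making 4. None of the 10 genes passed in the higher direction, where 1.51% of gene names did. Counted by probe, 6 of the 17 passed in the lower direction, beside 1.87% of all probes tested, and none in the higher direction, beside 1.06%. The 6 include all 4 probes of Adamts2, which are repeat readings of 1 gene. All of the 6 but A_51_P227222 and the Adamtsl4 probe passed the filter through the Ip6k1+/+ lines alone, so this count is not support for a lower level. This cutoff carries no test, and for Adamtsl1 and Adamtsl4 it rested on the bright Ip6k1+/+ line 1: without that line only Adamts2 of the 10 passed. Without Ip6k1-/- line 1 probe A_52_P150851 of Adamts12 differed by -1.05. Without Ip6k1-/- line 2 the Adamts5 probes differed by -1.22 and -1.31, and A_52_P49321 of Adamts9 by -3.02. With 1 Ip6k1-/- line left the limit per line adds nothing, so the cutoff was looser for all probes. Under normexp background correction, too, Adamts2 alone of the 10 passed. Among the 12 probes measured in every line, 2 passed the cutoff in the lower direction, A_51_P227222 of Adamts2 and the Adamtsl4 probe, beside 1.21% of all probes measured in every line.

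No probe of the 10 genes had a limma adjusted p of at most 0.05, and 0.0139% of all probes tested did. At an unadjusted p under 0.05, limma gave 4 of the 17 probes, all of Adamts2 and all lower, beside 3.34% of all probes in either direction and 2.04% lower. All of these but A_51_P227222 passed the filter through the Ip6k1+/+ lines alone, and they are repeat readings of 1 gene. With only probes measured in every line, limma gave 1 of 12, beside 3.13% of all such probes. The methods' t-test gave 1 of the 17, A_52_P510592, beside 3.94% of all probes tested. The Ip6k1-/- lines were both under the Ip6k1+/+ range on 5 of the 17 probes, the 4 of Adamts2 and A_51_P478569 of Adamtsl1, beside 12.6% of all probes tested, and 4 of these 5 passed the filter through the Ip6k1+/+ lines alone. Restricted to probes measured in every line, this held for 1 of 12, beside 11.5% of all such probes. They were both over it on none of the 17, beside 18.8%. The median difference was -0.35 over the 12 probes measured in every line, 9 of which were lower, beside 0.06 with 42.0% lower over all unsaturated probes of that kind; over all 17 it was -0.47, with -0.06 without Ip6k1-/- line 1 and -1.01 without Ip6k1-/- line 2.

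**Figure D2:**
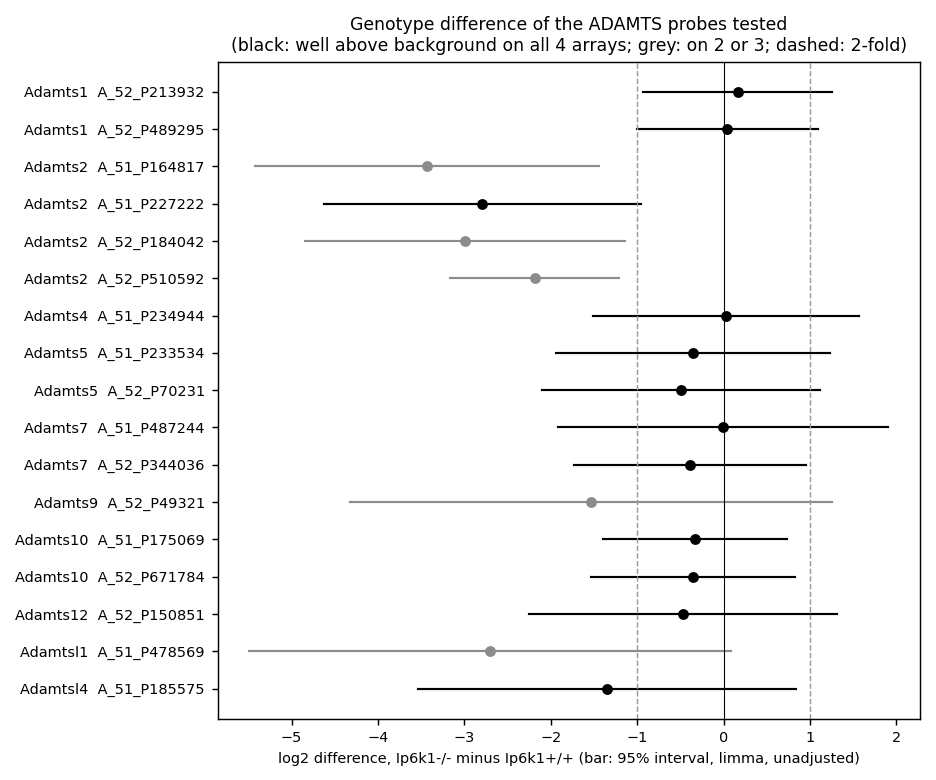
Points are log2 differences, Ip6k1-/- minus Ip6k1+/+, for the 17 probes tested, with limma's unadjusted 95% interval as a bar; black marks probes measured in every line, grey those measured in 2 or 3 lines, and dashed lines a 2-fold difference. The intervals of the 4 Adamts2 probes lie below 0 and the other 13 include 0.

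The proteases that cleave aggrecan and versican did not separate by genotype. Adamts1 probe A_52_P213932 was at -0.64 and -0.49 in Ip6k1+/+ MEFs and at -0.92 and 0.12 in Ip6k1-/- MEFs, a difference of 0.16 (standard error 0.42). Its probe A_52_P489295 was at 3.80 and 3.51 against 3.16 and 4.23, a difference of 0.04 (standard error 0.40). On both probes the Ip6k1-/- lines were the lowest and the highest of the 4, with the Ip6k1+/+ lines between them. Adamts5 showed the same order of the Ip6k1-/- lines: probe A_51_P233534 was at 2.76 and 3.19 against 1.75 and 3.48, and probe A_52_P70231 at -2.78 and -2.94 against -4.17 and -2.53. Their differences between genotypes were -0.36 (standard error 0.61) and -0.49 (standard error 0.62). Ip6k1-/- line 2 exceeded Ip6k1-/- line 1 by 1.04 and 1.08 on the Adamts1 probes and by 1.73 and 1.64 on the Adamts5 probes. Adamts1 and Adamts5 are neighbours on chromosome 16, where 62950 bases separate their nearest probes. Adamts4 probe A_51_P234944 was at -1.41 and 0.24 against -0.51 and -0.62. Here the Ip6k1+/+ lines were the lowest and the highest, and the difference of 0.03 (standard error 0.59) was below their gap of 1.65.

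Adamts9 has 4 probes, and they did not read alike. Probe A_52_P49321 was at -1.27 and -2.31 in Ip6k1+/+ MEFs, at -4.81 in Ip6k1-/- line 1, where it was not well above background, and at -1.83 in Ip6k1-/- line 2. Line 2 lay within the Ip6k1+/+ range and line 1 far below it, and the difference of -1.53 (standard error 1.07, 95% interval -4.32 to 1.26) did not pass limma's test or the cutoff per line. The 4 probes span 153357 bases of chromosome 6. Probe A_51_P479390, designed on a cDNA clone, was well above background only in Ip6k1+/+ line 2, at -1.83, and was not tested. The remaining probes, A_51_P407417 and A_52_P237241, were not well above background in any line.

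Adamts7 and Adamts12, which resemble each other in domain structure, differed more by the replicate number of the line than by its genotype. This was not particular to them: the mean gap between lines 1 and 2 exceeded the genotype difference on 11 of the 17 probes tested. Over all probes tested it did so for 57.5%. The gap had the same sign in both genotypes on 11 of the 17, beside 63.0% of all probes tested. Adamts7 probe A_51_P487244 was at -2.15 and -0.13 in Ip6k1+/+ MEFs and at -1.44 and -0.85 in Ip6k1-/- MEFs, and probe A_52_P344036 at -3.35 and -2.25 against -3.51 and -2.87. On both probes line 2 was above line 1 within each genotype, and the differences between genotypes were -0.01 (standard error 0.73) and -0.39 (standard error 0.51). Adamts12 ran the other way. Its probe A_52_P150851 was at -0.27 and -1.83 against -0.94 and -2.09, so that line 1 was the higher in each genotype, and the difference between genotypes was -0.47 (standard error 0.68). Probe A_52_P233305 of Adamts12 was well above background only in the lines numbered 1, at -4.36 in Ip6k1+/+ and -4.59 in Ip6k1-/- MEFs, and A_51_P162008 in none, so neither was tested.

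Adamts10, a protease with a role in fibrillin microfibrils, was measured in every line by both of its probes. A_51_P175069 was at -2.07 and -1.34 against -2.31 and -1.77, and A_52_P671784 at -3.01 and -2.16 against -3.23 and -2.63. In each case Ip6k1-/- line 2 lay between the Ip6k1+/+ lines and line 1 just below them, and line 2 was above line 1 in both genotypes. The differences were -0.33 (standard error 0.41) and -0.35 (standard error 0.45).

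For the 6 genes measured in every line other than Adamts2 and Adamtsl4, the 10 such probes differed between genotypes by -0.49 to 0.16, and for all 10 the larger gap between lines of 1 genotype exceeded the difference between genotypes. Their unadjusted 95% intervals had half-widths from 1.05 to 1.91, and none lay wholly within a 2-fold difference in both directions. A difference of that size was thus not excluded in both directions for Adamts1, Adamts4, Adamts5, Adamts7, Adamts10 or Adamts12. In a single direction it lay outside the interval on A_52_P213932 of Adamts1 (lower limit -0.94), A_52_P344036 of Adamts7 (upper limit 0.95) and both Adamts10 probes (upper limits 0.73 and 0.83). The other Adamts1 and Adamts7 probes excluded it in neither direction. Over the 17 probes tested, the gap between lines of 1 genotype exceeded the difference between genotypes for 13, and over all probes tested it did so for 80.9%.

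**Figure D3:**
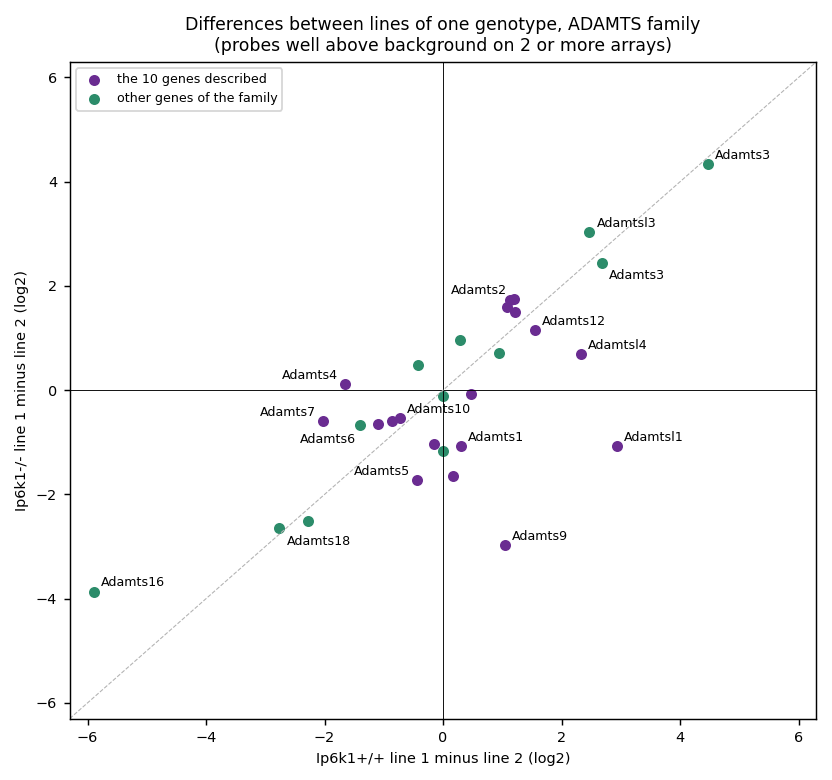
For each ADAMTS family probe well above background on at least 2 arrays, the log2 gap between Ip6k1+/+ lines 1 and 2 is set against the gap between Ip6k1-/- lines 1 and 2; the dashed line marks equal gaps. Adamts3, Adamts16, Adamts18 and Adamtsl3 have points far from the centre near the dashed line, and Adamts1 and Adamts5 differ mainly between the Ip6k1-/- lines. Adamts2 and Adamts12 lie on the same side for both genotypes, except Adamts2 probe A_52_P510592, with gaps of 0.47 in Ip6k1+/+ and -0.08 in Ip6k1-/- MEFs.

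The rest of the family was read for comparison. Of 16 further ADAMTS and ADAMTS-like genes, 15 had a probe by name, 7 were tested on 8 probes, and none passed the cutoff in either direction. The median difference of these 8 probes was 0.09. Adamts14, a procollagen N-proteinase like Adamts2, was at -2.92 and -2.93 in Ip6k1+/+ MEFs and at -3.06 and -2.94 in Ip6k1-/- MEFs on probe A_52_P170538, a difference of -0.07 (standard error 0.31, 95% interval -0.87 to 0.72). Its other probe, A_52_P156763, was not tested, since it was well above background only in Ip6k1+/+ line 2. It was at -4.94 and -4.63 against -5.50 and -6.33. The last procollagen N-proteinase, Adamts3, was read by A_51_P462407 at -2.49 in Ip6k1+/+ line 1 and -2.44 in Ip6k1-/- line 1, and was called well above background in neither line numbered 2, at -6.96 and -6.77. Adamts6 differed by -0.66 (standard error 0.58), Adamts18 by 0.71 (standard error 1.28), Adamts20 by -0.30 (standard error 0.46), Adamtsl3 by 0.21 (standard error 1.29), Adamtsl5 by 0.35 and 0.03 on its 2 probes and Thsd4, which encodes ADAMTSL6, by 0.15. Adamts18 was higher in both lines numbered 2 by 2.76 and 2.65 and Adamtsl3 in both lines numbered 1 by 2.47 and 3.03.

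Genes whose proteins are cleaved, bound or needed by ADAMTS proteases were then read from a list of 26. Of these, 25 had a probe and 21 were tested on 33 probes. Only Col2a1 passed the cutoff in the lower direction and none in the higher direction, and no probe had a limma adjusted p of at most 0.05. Col2a1 did not pass it without Ip6k1+/+ line 1, and which genes of the list passed changed with each line left out. Lower values were found on 25 of the 33 probes, with a median difference of -0.32, beside 43.5% lower and a median of 0.05 over all probes tested. For the 28 that were measured in every line and not saturated, 24 were lower and the median was -0.35, beside 42.0% lower and a median of 0.06 over all probes of that kind.

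Among the procollagens, the substrates of Adamts2, Col2a1 of cartilage probe A_51_P317141 was at 2.15 and -1.10 in Ip6k1+/+ MEFs and at -1.07 and -3.18 in Ip6k1-/- MEFs, and probe A_52_P216436 at 2.02 and -2.76 against -1.80 and -3.55. Ip6k1+/+ line 1 stood above the other 3 lines on both. The differences were -2.65 (standard error 1.29) and -2.31 (standard error 1.68), both below the gaps of 3.26 and 4.78 between the Ip6k1+/+ lines. Col3a1, a collagen of skin and vessels, was at 6.24 and 5.90 against 5.46 and 4.17 on probe A_51_P515605, with both Ip6k1-/- lines lower. The difference was -1.25, with a standard error of 0.46 and a limma adjusted p of 0.993, and Ip6k1-/- line 1 missed the cutoff per line. Probe A_51_P414637 of Col5a1 differed by -0.52 (standard error 0.18). A_51_P515605 and A_51_P414637 were the 2 probes of the list with a limma unadjusted p under 0.05, at 0.0444 and 0.0359, beside 3.34% of all probes tested. The other Col5a1 probe, A_52_P237371, differed by -0.28, less than the gaps of 0.59 and 0.68 between lines of 1 genotype. The Col1a1 probes differed by -0.60, -0.70 and 0.05. Col1a2 and 1 probe of Col1a1 were saturated on at least 1 array, and so were 1 probe each of Grn and Fbln2. The basement membrane proteins Nid1 and Nid2, substrates of ADAMTS1, differed by -0.99 (standard error 0.43) and -0.89 (standard error 0.35), each with both Ip6k1-/- lines below both Ip6k1+/+ lines.

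Aggrecan, Acan, was at -1.56 and -2.56 in Ip6k1+/+ MEFs and at -2.37 and -3.69 in Ip6k1-/- MEFs, a difference of -0.97 (standard error 0.61) with overlapping lines. Versican, Vcan, differed by -0.06 (standard error 0.25) on A_52_P251703 and by -0.56 (standard error 0.33) on A_52_P168953. Comp, the substrate shared by ADAMTS7 and ADAMTS12, was at 1.00 and -3.34 against 1.24 and -3.53: the lines numbered 1 exceeded the lines numbered 2 by 4.34 and 4.77, and the genotypes differed by 0.02 (standard error 2.11). This is the direction in which the Adamts12 probes differed between lines and opposite to the Adamts7 probes.

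None of the genes that process, clear or inhibit these proteases passed the cutoff in either direction. Furin, which cuts off the ADAMTS propeptide, differed by 0.15 (standard error 0.21), and Timp3, an inhibitor of several family members, by -0.33 (standard error 0.51), with 5.46 and 4.08 in Ip6k1+/+ MEFs against 4.69 and 4.19. Lrp1, a receptor that takes up ADAMTS4 and ADAMTS5, had probes at -0.32 (standard error 0.39) and 0.40 (standard error 0.59). Pofut2, which adds fucose to thrombospondin repeats, differed by -0.80 (standard error 0.31) on A_52_P88591, with both Ip6k1-/- lines below both Ip6k1+/+ lines, and by -0.29 (standard error 0.23) on A_52_P296682, where the lines overlapped. Pcsk6, a convertase related to furin, was at 4.87 and -1.39 against 3.49 and -0.81 on A_52_P376574, so that the gap of 6.26 between the Ip6k1+/+ lines far exceeded the difference of -0.40 (standard error 2.47).

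**Figure D4:**
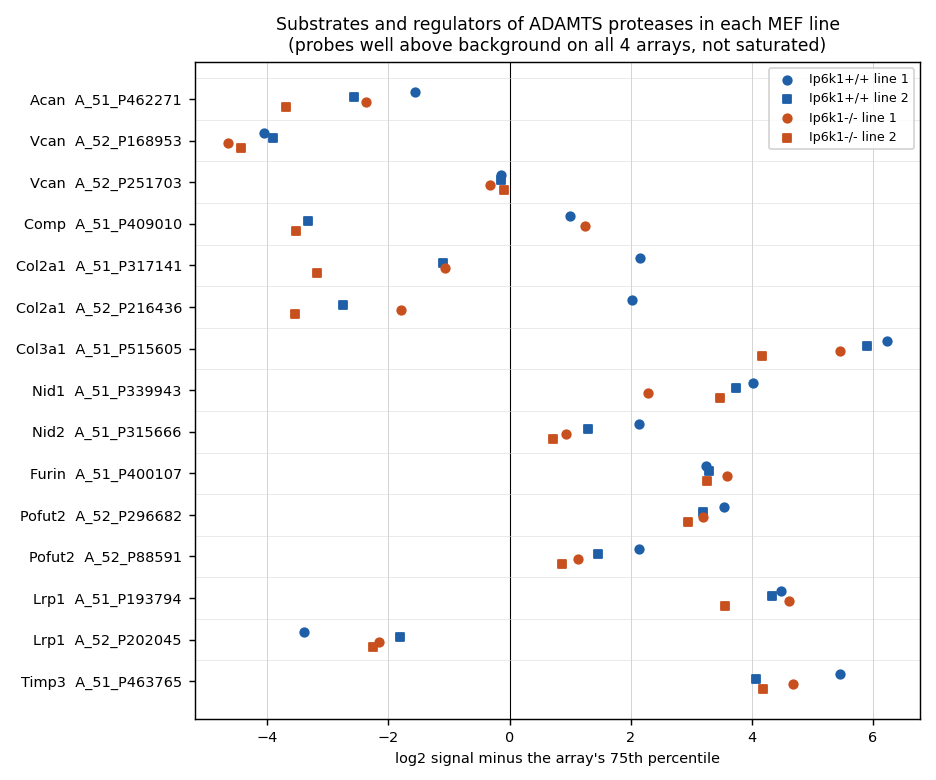
Each row is a probe of a substrate or regulator gene and each point 1 MEF line, on the log2 signal minus the 75th percentile of the array. Col2a1 stands high in Ip6k1+/+ line 1 alone, Comp follows the replicate number, and Col3a1 and Nid2 are lower in both Ip6k1-/- lines.

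Marker genes of cartilage and of other cell types were read in each line. Acan, Col2a1 and Sox9, the regulator of cartilage identity, were well above background in every line on at least 1 probe, Col9a1 and Matn1 in none, and all 6 tested probes of the list were lower in Ip6k1-/- MEFs. The summed signal of the 5 chondrocyte markers, relative to the 75th percentile, was 7.96 and 2.71 in Ip6k1+/+ MEFs and 2.82 and 0.361 in Ip6k1-/- MEFs. Ip6k1+/+ line 1 was the highest of the 4 and Ip6k1-/- line 2 the lowest. Among member probes measured in every line, this also held for A_51_P227222 of Adamts2, the Adamtsl4 probe and A_52_P150851 of Adamts12, and for none of the others. A_52_P150851 differed between genotypes by only -0.47, with overlapping lines. The share of all probes with this order of lines was not counted, and 4 lines are too few to read a likeness of pattern from it. Adamtsl1 probe A_51_P478569 was also highest in Ip6k1+/+ line 1 but lowest in Ip6k1-/- line 1. The same sum over the 8 fibroblast markers was 139 and 197 in Ip6k1+/+ MEFs and 107 and 94.0 in Ip6k1-/- MEFs. Each sum took the brightest unsaturated probe of a gene, and 3 fibroblast marker probes were saturated and left out. Of the 12 tested probes of the fibroblast list, 7 were lower in Ip6k1-/- MEFs and 5 higher. Dcn and Pdgfrb passed the cutoff in the lower direction, with differences of -2.40 (standard error 0.82) and -1.20 (standard error 0.19). The part of either marker list in the differences of Adamts2, Adamtsl1 and Adamtsl4 was not tested. Of the other types read, 4 skeletal muscle markers and the endothelial Pecam1, Cdh5, Tek and Tie1 were not well above background in any line, nor were the epithelial Cdh1 and the macrophage genes Ptprc, Itgam and Emr1. The other 3 of 4 epithelial markers were well above background on at least 1 array, with Krt18 in every line. So were the other 2 of 5 macrophage markers, with Cd68 in every line. The summed epithelial signal was 0.676 and 3.09 in Ip6k1+/+ MEFs and 0.452 and 1.53 in Ip6k1-/- MEFs. Kdr, the endothelial marker that was measured in every line, was higher in both Ip6k1-/- lines by a mean of 1.56 (standard error 0.55, limma adjusted p = 0.993).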

How the data were processed

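Microarray measurements of 4 MEF lines were used, 2 per genotype, as grouped by their labels. The authors deposited spot intensity on a linear scale after background correction in Feature Extraction 10.5.1.1, per the file headers, and log2 values that GeneSpring had shifted to the 75th percentile. Here log2 of the processed signal minus the 75th percentile of the 43379 spots per array that are not controls was taken, without spots marked as outliers (96 to 133 per array), and spots of 1 probe were averaged. Apart from 1 offset per array, these matched the deposited log2 values with a median deviation of 0.0025.

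The 21572 probes that were well above background in both lines of 1 or both genotypes were tested. The test was limma 3.58.1 under R 4.3.3 (lmFit, then eBayes with its trend option), two-sided and Benjamini-Hochberg adjusted over all of them, beside the 2-fold cutoff, whose limit per line was set here. The fit was tested on simulated data. Alternatives were other filters, normexp (offset 50), quantile and median normalisation, the deposited values, outlier spots kept and no variance trend. Further ones were a replicate block, a plain mean cutoff, leaving out each array, and the two-sided t-test that the study names in its general methods. All arrays share 1 slide and 1 scan day, so neither served as a block. Precision is limited by the number of arrays.

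All 10 genes are named with every probe. Of the other family members, those tested are named, as is Adamts3, chosen after its values were seen. Of the substrate, partner and regulator genes, the 6 with the largest differences measured in every line and 6 set ones (Acan, Vcan, Comp, Timp3, Furin, Lrp1) are named, and Col5a1, Pcsk6 and the saturated genes were added after their values were seen. The 10 genes, the lists and the markers were chosen with earlier results of these data known. Adamts17 and B3glct were not found by name among the probes and are not analysed here. No annotation of mm9 was used, so exons and untranslated regions are not given.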

Additional observations from a re-analysis of the deposited data

How the results depend on the processing

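No alternative gave any of the 10 genes a limma adjusted p of at most 0.05, and none of the 10 passed the 2-fold cutoff in the higher direction under any. Adamts2 passed it in the lower direction under all 12 alternatives that bear on it, Adamtsl4 under 10, Adamtsl1 under 9, Adamts9 under 3, and Adamts5 and Adamts12 under 1 each, while Adamts1, Adamts4, Adamts7 and Adamts10 passed under none. The number of genes past it, 3, was 1 under normexp background correction and ran from 1 to 5 when single arrays were left out. The 4 probes with an unadjusted p under 0.05 became 1 with only probes measured in every line, where fewer probes were tested, 1 by the t-test of the methods, and 2 to 7 without single arrays. The median difference ran from -1.01 to -0.061 without single arrays. Of the substrate, partner and regulator genes, 2 were past the cutoff in the lower direction with no filter on dim probes (Hapln1 added) and 2 by the plain mean cutoff (Col3a1 added). Which of them passed changed when single arrays were left out.

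Without single arrays, the 4 Adamts2 probes ran from -4.31 to -2.56 (A_51_P164817), -3.65 to -1.93 (A_51_P227222), -3.80 to -2.19 (A_52_P184042) and -2.42 to -1.95 (A_52_P510592), Adamtsl1 from -4.17 to -1.24, Adamtsl4 from -2.51 to -0.19 and A_52_P49321 of Adamts9 from -3.02 to -0.042. Under normexp Adamtsl1 was at -0.86 and Adamtsl4 at -0.83. The sign turned for other genes. Adamts4 was at -0.0034 under normexp and A_51_P487244 of Adamts7 at 0.036 under median centring. Without single arrays, Adamts4 ran from -0.80 to 0.85, Adamts1 from -0.36 to 0.68 on A_52_P213932 and from -0.50 to 0.58 on A_52_P489295, Adamts5 from -1.22 to 0.51 on A_51_P233534 and from -1.31 to 0.33 on A_52_P70231, Adamts7 from -1.02 to 1.00 on A_51_P487244 and from -0.94 to 0.16 on A_52_P344036, Adamts10 from -0.69 to 0.030 on A_51_P175069 and from -0.78 to 0.078 on A_52_P671784, and Adamts12 from -1.24 to 0.31. The cause was not tested.

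With the replicate number as a block, 6 probes of the 10 genes had a limma unadjusted p under 0.05, beside 8.18% of all probes, the added ones being of Adamtsl1 and Adamtsl4, and 0 genes passed the adjusted threshold. The gaps between replicates 1 and 2 correlated at 0.48 between genotypes across all probes, which are not independent, but nothing in the labels says that equal numbers pair the lines. Signal over background limits what can be said of the 6 probes not tested.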
